A study of Mus musculus with 9 samples.

Results

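The core circadian clock was followed through 10 genes in the colon of C57BL/6J mice: Arntl, Clock, Npas2, Cry1, Per1, Per2, Per3, Nr1d1, Nr1d2 and Dbp. The members were chosen by symbol from the 35315 genes of the expression table, and all 10 were found once each. The choice was made with the values of these libraries known, so the members' levels in every comparison below are a description. The animals were wild-type mice, 8 weeks old, in 3 groups with 3 libraries each. GsMTx4 mice were given 2.5% dextran sulfate sodium (DSS) to drink, which damages the gut lining and brings on colitis, for 7 days. They received 10 mg/kg GsMTx4, a spider-venom peptide that blocks stretch-activated cation channels, by vein on days 2, 4 and 6. DSS mice had the same drinking water and solvent injections on those days. Control mice drank normal water, and no injection is listed for them, so DSS and the injections cannot be told apart against Control. Whether each library is a mouse of its own is not said in the labels, which also give no hour of tissue collection, whose part in these levels was not tested.

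The clock is a feedback loop of transcription that runs in nearly every cell and sets daily rhythms in gut epithelium. Arntl (BMAL1) pairs with Clock or Npas2 and binds E-boxes, switching on the Per and Cry genes, Nr1d1, Nr1d2 and Dbp. The Per and Cry proteins then repress the pair that made them, and the nuclear receptors Nr1d1 and Nr1d2 (REV-ERB alpha and beta) repress Arntl, Npas2, Cry1 and Nfil3. Dbp activates genes that hold D-boxes, Per genes among them. In a rhythmic tissue Arntl, Npas2 and Cry1 therefore peak at hours when Dbp, Nr1d1 and Per3 are low.

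Promoter windows of the members ran from 250 bases before to 50 bases after a RefSeq transcript start on GRCm38.p6. A window is shown for each member that holds a searched motif, and for Dbp, which had the largest ratio of GsMTx4 to the other groups. The windows of Clock, Npas2 and Nr1d2 held no match and are not shown. Windows were found for 9 of the 10 members. Capitals mark 4 searched motifs, read on both strands: the E-box CACGTG, its variant AACGTG, the D-box TTATGNAA and TAGGTNA, an element bound by the Nr1d and Ror receptors. No match overlapped another in the windows shown. The windows run 5′ to 3′ along the gene's own strand.
Arntl, second start, chr7:113207261-113207560, plus strand: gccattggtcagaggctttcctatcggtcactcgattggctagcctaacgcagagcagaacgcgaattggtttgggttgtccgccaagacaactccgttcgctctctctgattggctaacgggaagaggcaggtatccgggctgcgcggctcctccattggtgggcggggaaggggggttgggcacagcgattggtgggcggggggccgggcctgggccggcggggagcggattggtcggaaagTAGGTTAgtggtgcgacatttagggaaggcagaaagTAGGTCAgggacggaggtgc
Cry1, chr10:85185005-85185304, minus strand: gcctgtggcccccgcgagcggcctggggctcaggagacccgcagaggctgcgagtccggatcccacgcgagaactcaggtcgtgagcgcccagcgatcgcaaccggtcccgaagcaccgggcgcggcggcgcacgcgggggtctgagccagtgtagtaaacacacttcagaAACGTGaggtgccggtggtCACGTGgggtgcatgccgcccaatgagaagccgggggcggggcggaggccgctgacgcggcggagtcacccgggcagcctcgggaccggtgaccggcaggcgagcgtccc
Per1, first start, chr11:69098699-69098998, plus strand: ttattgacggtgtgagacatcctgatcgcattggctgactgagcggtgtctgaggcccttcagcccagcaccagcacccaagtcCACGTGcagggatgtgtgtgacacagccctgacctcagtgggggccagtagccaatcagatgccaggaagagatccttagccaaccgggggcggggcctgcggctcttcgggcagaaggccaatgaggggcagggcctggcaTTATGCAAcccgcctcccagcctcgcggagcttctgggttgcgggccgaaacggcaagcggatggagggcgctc
Per3, chr4:151044616-151044915, minus strand: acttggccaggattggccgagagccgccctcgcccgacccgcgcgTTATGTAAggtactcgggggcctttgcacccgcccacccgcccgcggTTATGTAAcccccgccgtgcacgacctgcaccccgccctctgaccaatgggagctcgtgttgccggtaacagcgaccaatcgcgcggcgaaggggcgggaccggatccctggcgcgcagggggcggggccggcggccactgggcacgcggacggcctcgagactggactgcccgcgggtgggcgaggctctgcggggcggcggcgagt
Nr1d1, chr11:98775328-98775627, minus strand: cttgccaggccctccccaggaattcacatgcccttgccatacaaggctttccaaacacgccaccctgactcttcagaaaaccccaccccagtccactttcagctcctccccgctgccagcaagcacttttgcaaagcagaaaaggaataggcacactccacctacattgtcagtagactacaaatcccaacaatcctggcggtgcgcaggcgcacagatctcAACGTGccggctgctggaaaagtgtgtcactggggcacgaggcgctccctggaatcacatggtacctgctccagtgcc
Dbp, chr7:45704997-45705296, plus strand: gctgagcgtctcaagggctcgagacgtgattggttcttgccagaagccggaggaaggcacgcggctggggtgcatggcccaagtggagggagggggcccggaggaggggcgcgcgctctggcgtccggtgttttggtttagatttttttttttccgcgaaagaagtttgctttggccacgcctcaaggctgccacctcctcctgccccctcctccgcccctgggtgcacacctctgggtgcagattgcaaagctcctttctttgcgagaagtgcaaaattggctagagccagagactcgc

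The E-box was found for Cry1 and Per1, 2 of 9 members, and for 8.09% of 27025 genes with a window (7.15% of 32851 windows). The E-box variant was found for Cry1 and Nr1d1, against 5.44% of all genes (4.68% of windows). Per3 held 2 D-boxes and Per1 held 1, against 3.99% of all genes (3.38% of windows) with at least 1. The receptor element was found in Arntl alone among the members, with matches at positions -6 and 31 in the window of its second start, against 9.51% of all genes (8.29% of windows). The windows of Clock, Npas2, Nr1d2 and Dbp held none of the 4 motifs, which says only that these letters are not in these windows.

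**Figure D1:**
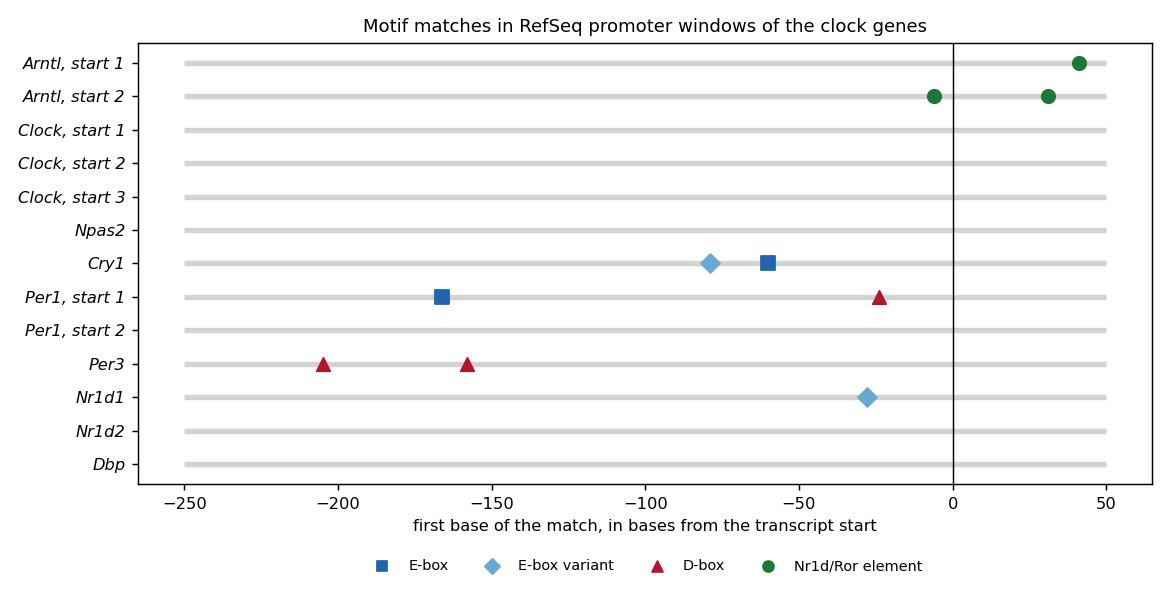
Positions of motif matches in the promoter windows of 9 clock genes, with the first base of each match in bases from the transcript start on the horizontal axis and 1 line per window. Cry1 holds an E-box at -60 and its variant at -79, Per3 holds D-boxes at -205 and -158, and both starts of Arntl hold the receptor element.

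Levels were read as FPKM, a fragment count scaled by transcript length and library size. FPKM sums ran from 349125 to 440935 per library, the highest in GsMTx4 3, and 12830 to 14036 genes reached 1 FPKM. The number of reads is unknown, but the commonest ratio of low values between libraries put their depths at 0.768 to 1.09 times that of Control 1, with all 3 GsMTx4 libraries and DSS 3 at or below 0.876. Log2 fold changes are on the scale of FPKM + 1 and carry standard errors (SE) from a limma fit over 14360 genes, with n = 3 libraries per group. All 10 members reached 1 FPKM in at least 7 of the 9 libraries and entered the fit.

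With GsMTx4 the members split into arms that stood apart from both other groups. Dbp, Nr1d1, Nr1d2, Per2 and Per3 were higher in all GsMTx4 libraries than in any DSS or Control library, and Arntl, Npas2 and Cry1 were lower in all of them. Clock was higher than in DSS and lay within the range of Control, and Per1 overlapped both. Against DSS, 6 of 10 members lay wholly higher and 3 wholly lower, with 17.5% of all tested genes wholly higher, 12.8% wholly lower and 30.3% either way. Against Control, 5 of 10 lay wholly higher and 3 wholly lower, with 5% of all tested genes wholly higher, 14.6% wholly lower and 19.6% either way. For DSS against Control, 3 of 10 members, Clock, Per3 and Nr1d2, lay wholly lower and 0 wholly higher, with 33.6% of all tested genes wholly lower, 13.5% wholly higher and 47.1% either way.

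**Figure D2:**
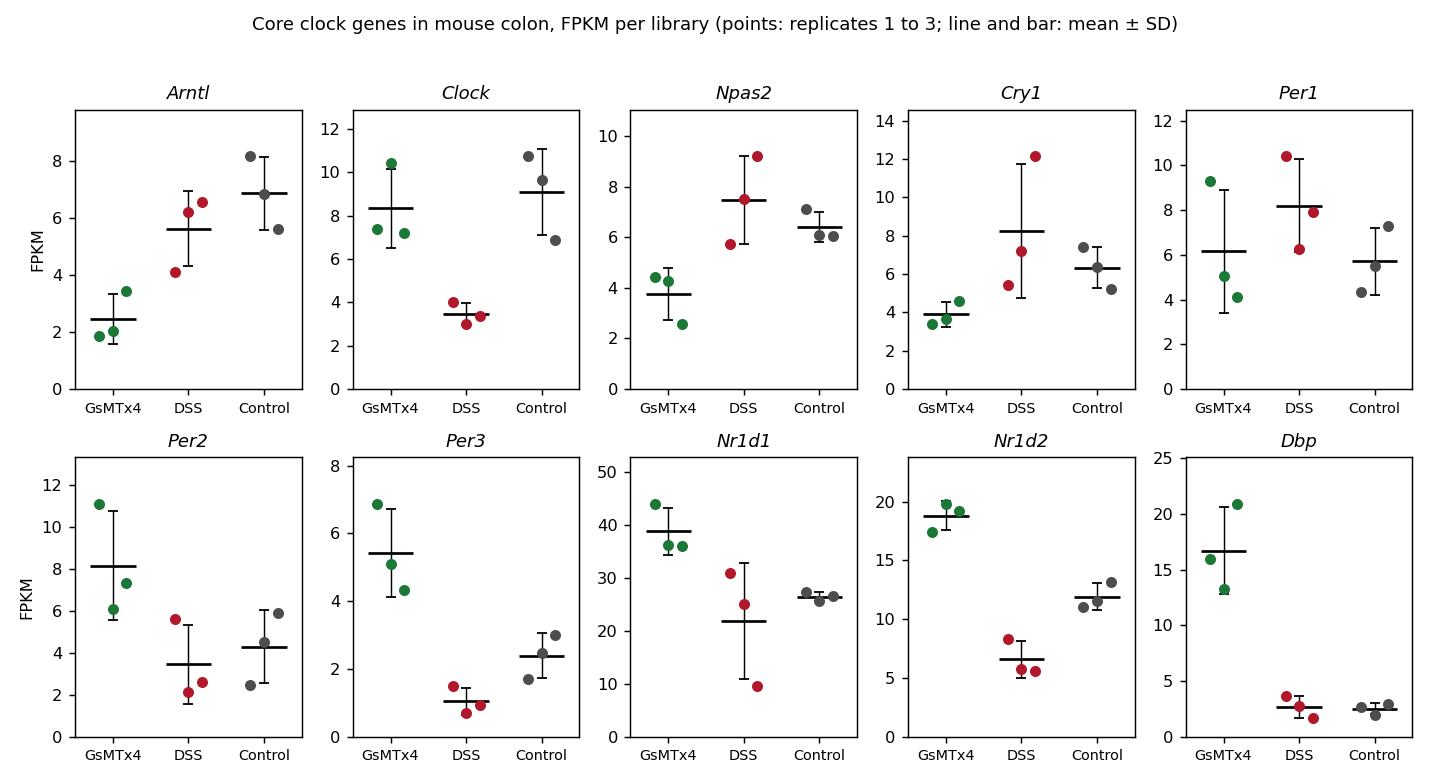
FPKM of the 10 clock genes in each of the 9 libraries (points), with the mean and SD of each group of 3 (line and bar), from 0 upward with a scale of its own per gene. Dbp stands at 13.2 to 20.9 FPKM in GsMTx4 and at 1.68 to 3.62 FPKM in the other libraries, while Arntl, Npas2 and Cry1 are lowest in GsMTx4.

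Among the clock's output regulators, Dbp encodes a PAR bZIP transcription factor that activates genes with D-boxes (chromosome 7, 45705088 to 45710203, GRCm38, plus strand). It stood at 16.0, 13.2 and 20.9 FPKM in the GsMTx4 libraries, at 3.62, 2.72 and 1.68 FPKM in the DSS libraries, and at 2.63, 1.97 and 2.98 FPKM in the Control libraries. Every GsMTx4 library was higher than every other library, whereas DSS and Control overlapped. Mean FPKM in GsMTx4 was 6.24 times that of DSS and 6.60 times that of Control, the largest ratio among the members in both comparisons. The log2 fold changes were 2.28 ± 0.23 against DSS and 2.31 ± 0.23 against Control, while DSS against Control gave 0.03 ± 0.23. Exons of Dbp share 539 bases, 18.01% of their length, with Sphk2 on the opposite strand, and whether counting used strand is not given. Sphk2 averaged 16.2 ± 1.92 FPKM in GsMTx4, 10.3 ± 4.55 FPKM in DSS and 16.0 ± 0.555 FPKM in Control (SD, n = 3 each).

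The receptors Nr1d1 and Nr1d2, which bind heme and repress transcription, were also high with GsMTx4. Nr1d2 (chromosome 14, 18204054 to 18239127, minus strand) stood at 17.4, 19.8 and 19.2 FPKM in GsMTx4, at 8.36, 5.77 and 5.62 FPKM in DSS and at 11.03, 11.5 and 13.2 FPKM in Control. No pair of groups overlapped, with DSS lowest and GsMTx4 highest. Its log2 fold changes were 1.40 ± 0.16 for GsMTx4 against DSS, 0.62 ± 0.16 for GsMTx4 against Control and -0.78 ± 0.16 for DSS against Control.

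Nr1d1 (chromosome 11, 98767932 to 98775333, minus strand) was the most abundant member by mean in each group. It stood at 44.0, 36.3 and 36.1 FPKM in GsMTx4, at 30.9, 25.2 and 9.68 FPKM in DSS and at 27.4, 25.6 and 26.5 FPKM in Control. GsMTx4 lay above all other libraries, DSS 3 was far below the other DSS libraries, and DSS 1 was above every Control library. The log2 fold change of GsMTx4 against DSS was 0.94 ± 0.34, and 0.46 without DSS 3. For DSS against Control it was -0.41 ± 0.34, and 0.07 without DSS 3. Exons of Nr1d1 share 263 bases, 8.55% of their length, with Thra on the opposite strand. Thra, a thyroid hormone receptor gene, averaged 11.2 ± 0.21 FPKM in GsMTx4, 10.4 ± 1.88 FPKM in DSS and 13.7 ± 0.923 FPKM in Control (SD, n = 3 each).

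The period genes, whose proteins carry the negative feedback, did not share 1 pattern. Per3 (chromosome 4, 151003652 to 151044665, minus strand), which holds the pair of D-boxes shown above, stood at 6.87, 5.09 and 4.33 FPKM in GsMTx4. It stood at 1.49, 0.717 and 0.941 FPKM in DSS and at 1.69, 2.48 and 3.005 FPKM in Control. All pairs of groups were separate, and mean FPKM in GsMTx4 was 5.17 times that of DSS and 2.27 times that of Control. The log2 fold changes were 1.65 ± 0.22 for GsMTx4 against DSS, 0.92 ± 0.22 for GsMTx4 against Control and -0.72 ± 0.22 for DSS against Control.

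Per2 (chromosome 1, 91415982 to 91459324, minus strand) stood at 11.1, 6.07 and 7.30 FPKM in GsMTx4, at 5.61, 2.14 and 2.59 FPKM in DSS and at 2.46, 4.50 and 5.91 FPKM in Control. GsMTx4 lay above the other groups, but the gap to Control 3 and DSS 1 was small, and DSS and Control overlapped. Its log2 fold changes were 1.08 ± 0.34 for GsMTx4 against DSS and 0.81 ± 0.34 for GsMTx4 against Control.

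Per1 (chromosome 11, 69095217 to 69109960, plus strand), which answers to glucocorticoids as well as to the clock, had no separate groups. It stood at 9.30, 5.05 and 4.12 FPKM in GsMTx4, at 10.4, 6.27 and 7.93 FPKM in DSS and at 4.32, 5.49 and 7.30 FPKM in Control. The log2 fold change of GsMTx4 against DSS was -0.40 ± 0.28, and it ran from -0.70 without GsMTx4 1 to -0.20 without GsMTx4 3. That of DSS against Control was 0.46 ± 0.28, and it ran from 0.29 without DSS 1 to 0.62 without Control 3. Against Control the GsMTx4 value was 0.05 ± 0.28, and its sign turned without GsMTx4 1 or Control 1 and after rescaling to TPM.

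Of the positive limb, Arntl (chromosome 7, 113207465 to 113314126, plus strand) was the member with the lowest GsMTx4 mean. It stood at 1.86, 2.03 and 3.45 FPKM in GsMTx4, at 4.10, 6.20 and 6.55 FPKM in DSS and at 8.16, 6.82 and 5.596 FPKM in Control. Every GsMTx4 library was below every other library, and DSS and Control overlapped. Its log2 fold changes were -0.95 ± 0.22 for GsMTx4 against DSS, -1.20 ± 0.22 for GsMTx4 against Control and -0.26 ± 0.22 for DSS against Control. The last of these was -0.08 without DSS 1 and -0.14 without Control 1.

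Npas2 and Clock are alternative partners of Arntl, and their levels ordered the groups differently. Npas2 (chromosome 1, 39193731 to 39363236, plus strand) stood at 4.44, 4.26 and 2.56 FPKM in GsMTx4, at 5.72, 7.50 and 9.20 FPKM in DSS and at 7.11, 6.10 and 6.05 FPKM in Control. It was lowest in GsMTx4, with log2 fold changes of -0.84 ± 0.21 against DSS and -0.66 ± 0.21 against Control. Clock (chromosome 5, 76209868 to 76304792, minus strand) stood at 7.38, 10.4 and 7.18 FPKM in GsMTx4, at 4.03, 2.998 and 3.36 FPKM in DSS and at 10.7, 9.66 and 6.86 FPKM in Control. Here DSS was the group apart. The log2 fold change of Clock was -1.16 ± 0.20 for DSS against Control, 1.05 ± 0.20 for GsMTx4 against DSS and -0.11 ± 0.20 for GsMTx4 against Control.

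Cry1 (chromosome 10, 85131700 to 85185064, minus strand) encodes a repressor of the Arntl pair. It stood at 3.38, 3.67 and 4.61 FPKM in GsMTx4, at 5.42, 7.20 and 12.1 FPKM in DSS and at 7.39, 6.38 and 5.22 FPKM in Control. Every GsMTx4 library was below every other library, and DSS and Control overlapped. Its log2 fold changes were -0.86 ± 0.25 for GsMTx4 against DSS and -0.58 ± 0.25 for GsMTx4 against Control. Cry1 thus lay with Arntl and Npas2 and apart from Per2 and Per3 in these libraries, while Per1 had no separate groups.

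In the limma fit with Benjamini-Hochberg adjustment over all 14360 genes, Dbp, Nr1d2, Per3 and Clock passed at 0.05 as higher in GsMTx4 than in DSS, 4 of 10, with 6.66% of all tested genes called higher. Arntl and Npas2 passed as lower, 2 of 10, with 5.62% of all tested genes called lower and 12.3% called either way. For GsMTx4 against Control only Dbp passed, as higher, 1 of 10, and 0 as lower, with 0.188% of all tested genes called higher, 0.0487% lower and 0.237% either way. For DSS against Control Clock, Per3 and Nr1d2 passed as lower, 3 of 10, and 0 as higher, with 10.7% of all tested genes called lower, 6.41% higher and 17.1% either way. The members were chosen with these values known, so nothing is read from these counts. With 1 library left out, the members called for GsMTx4 against DSS numbered from 4, without GsMTx4 2, DSS 2, DSS 3 or Control 2, where Arntl and Npas2 dropped out, to 8, without DSS 1, where Cry1 and Per2 joined. Arntl also dropped out without GsMTx4 1, and Npas2 without GsMTx4 3 or Control 3, leaving 5. For DSS against Control the members called numbered 2 without GsMTx4 2, DSS 2, DSS 3 or Control 2, where Per3 dropped out, and 1 without Control 3, where Per3 and Nr1d2 dropped out. For GsMTx4 against Control they numbered 2 without GsMTx4 3, where Arntl joined. Per3 for DSS against Control also dropped out with no filter, with the compared groups only and under each of the 3 other scalings tried. Arntl and Npas2 for GsMTx4 against DSS dropped out with no filter and with the compared groups only, and Npas2 after TPM rescaling. The members' median log2 fold change was 0.99 for GsMTx4 against DSS with a median of 0.07 over all genes, 0.29 and -0.08 for GsMTx4 against Control, and -0.26 and -0.17 for DSS against Control. Any pair of these comparisons shares the libraries of 1 group.

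**Figure D3:**
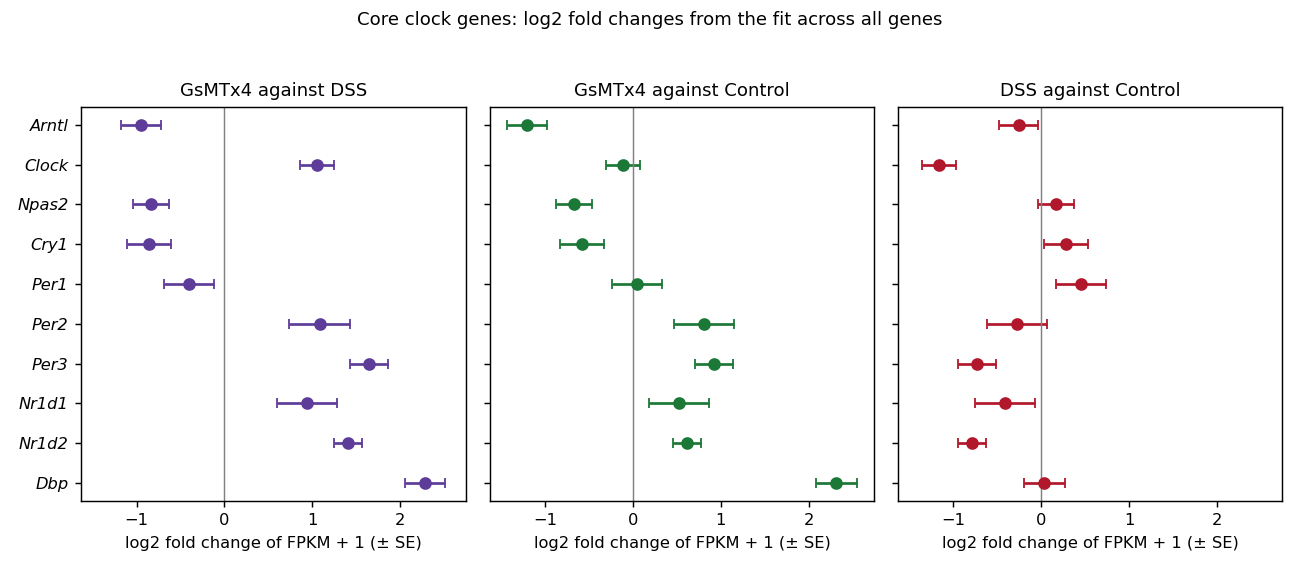
Log2 fold changes of FPKM + 1 with standard errors for the 10 clock genes in 3 comparisons, from the limma fit over all tested genes. In GsMTx4 against DSS the values run from -0.95 for Arntl to 2.28 for Dbp, and in DSS against Control Clock stands lowest at -1.16.

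A ratio of members within a library does not depend on the scaling of that library. Dbp was 8.57, 6.51 and 6.05 times Arntl in the GsMTx4 libraries, 0.881, 0.439 and 0.256 times Arntl in the DSS libraries, and 0.323, 0.289 and 0.532 times Arntl in the Control libraries. In every GsMTx4 library Dbp was thus above Arntl, and in every other library below it. Nr1d2 was 5.55 to 9.76 times Arntl in GsMTx4, 0.857 to 2.04 times in DSS and 1.35 to 2.36 times in Control. Per3 exceeded Arntl in GsMTx4, at 1.26 to 3.69 times its level, and was at 0.116 to 0.364 times in DSS and 0.207 to 0.537 times in Control. Per2 was 1.58 to 3.27 times Cry1 in GsMTx4, 0.213 to 1.04 times in DSS and 0.333 to 1.13 times in Control.

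**Figure D4:**
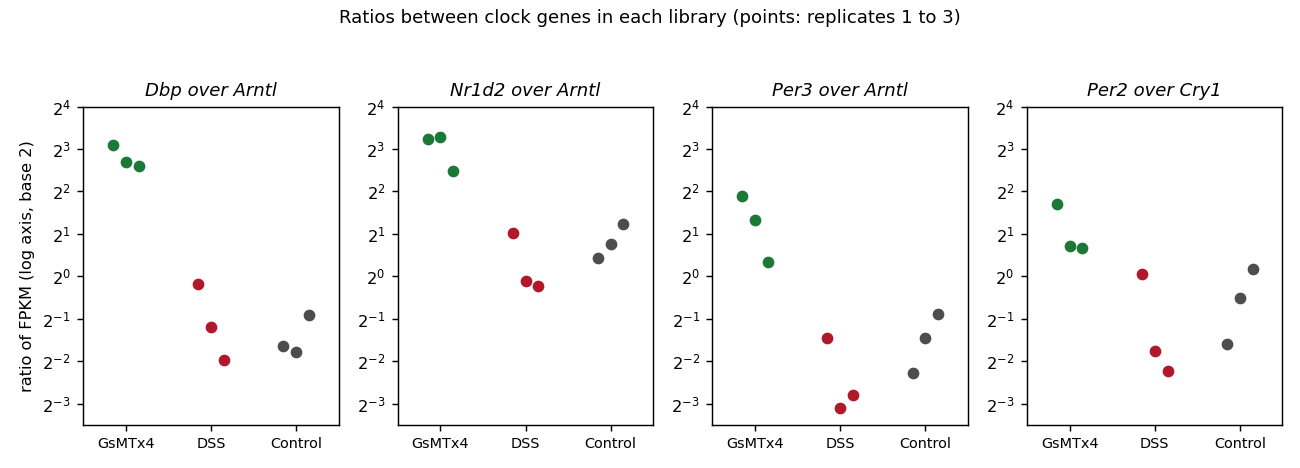
Ratios of FPKM between pairs of clock genes in each of the 9 libraries, on a log axis of base 2. For all 4 pairs the GsMTx4 libraries lie above the DSS and Control libraries, and DSS 1 lies above the other DSS libraries.

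The order of levels also differed between the groups. In GsMTx4 the leading members by mean were Nr1d1 at 38.8 ± 4.50 FPKM, Nr1d2 at 18.8 ± 1.24 FPKM and Dbp at 16.7 ± 3.89 FPKM, and the ranges of the neighbours Nr1d2 and Dbp overlapped. The lowest were Cry1, Npas2 and Arntl, at 3.89 ± 0.641, 3.76 ± 1.04 and 2.45 ± 0.874 FPKM, with ranges that overlapped their neighbours. In DSS Nr1d1 led by mean at 21.9 ± 10.95 FPKM, with a range that overlapped that of Cry1, the next member. The ranges of Cry1, Per1, Npas2, Nr1d2 and Arntl ran into each other, and Per3 was last at 1.05 ± 0.399 FPKM. In Control Nr1d1 led at 26.5 ± 0.907 FPKM and Nr1d2 followed at 11.9 ± 1.14 FPKM, each separate from the next. Dbp and Per3 were last in Control at 2.53 ± 0.511 and 2.39 ± 0.66 FPKM, with overlapping ranges (SD, n = 3 each).

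Libraries of the same group also differed from each other. DSS 1 was the highest DSS library for 7 members, Clock, Per1, Per2, Per3, Nr1d1, Nr1d2 and Dbp, and the lowest for the other 3, Arntl, Npas2 and Cry1. DSS 3 was the highest for those 3 and the lowest for Nr1d1, Nr1d2 and Dbp. Among the Control libraries, Control 1 was highest for Arntl, Clock, Npas2, Cry1 and Nr1d1 and lowest for Per1, Per2, Per3 and Nr1d2. Control 3 was highest for Per1, Per2, Per3, Nr1d2 and Dbp and lowest for Arntl, Clock, Npas2 and Cry1. Cry1 reached 12.1 FPKM in DSS 3, against 5.42 FPKM in DSS 1, and Per2 was 2.46 FPKM in Control 1 and 5.91 FPKM in Control 3. In GsMTx4 1 and GsMTx4 3 Arntl and Cry1 were again at the opposite extreme to Per1 and Per3. Npas2 departed from Arntl there, being highest where Arntl was lowest, and Dbp was highest in the same library as Arntl. GsMTx4 1 was highest for Npas2, Per1, Per2, Per3 and Nr1d1 and lowest for Arntl, Cry1 and Nr1d2. GsMTx4 3 was highest for Arntl, Cry1 and Dbp and lowest for Clock, Npas2, Per1, Per3 and Nr1d1. The GsMTx4 libraries spread most in Per1, at 9.30 FPKM in GsMTx4 1 and 4.12 FPKM in GsMTx4 3, and least in Nr1d2.

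Beyond the members, 18 further genes of the clock were listed, and 12 of them were high enough to test. In GsMTx4 against DSS 3 of 12 passed as higher and 1 as lower (limma, Benjamini-Hochberg over all genes), where 6.66% of all tested genes passed as higher and 5.62% as lower, and the median log2 fold change was 0.30, with 0.07 over all genes. Ciart, counted among those higher, entered the test through the group where it is high, so the count is not free of that selection. Nfil3, a bZIP repressor that competes with Dbp for D-boxes, fell with GsMTx4. It stood at 2.22, 3.003 and 2.77 FPKM in GsMTx4, at 5.32, 8.06 and 13.3 FPKM in DSS and at 4.38, 4.12 and 4.82 FPKM in Control. All groups were separate, with GsMTx4 lowest. The log2 fold change was -1.36 ± 0.26 for GsMTx4 against DSS (limma adjusted p = 0.0127), and the call held with each library left out. For DSS against Control Nfil3 gave 0.78 ± 0.26 (limma adjusted p = 0.0646), and limma adjusted p = 0.0162 without DSS 1.

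Ciart (CHRONO), a repressor of the Arntl pair, rose with GsMTx4. It stood at 2.94, 2.76 and 2.17 FPKM in GsMTx4, at 1.38, 0.690 and 0.558 FPKM in DSS and at 0.452, 0.512 and 0.942 FPKM in Control. It reached 1 FPKM in 4 libraries, 3 of them GsMTx4, so it entered the test through the group where it is high. Its log2 fold change was 0.97 ± 0.20 against DSS (limma adjusted p = 0.018), with limma adjusted p = 0.064 without GsMTx4 2 and 0.0538 without DSS 3. It also did not pass with no filter (limma adjusted p = 0.0529) or with the compared groups only (limma adjusted p = 0.0515).

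Fbxw11, a ubiquitin ligase subunit that marks Per proteins for breakdown, also rose. It averaged 23.2 ± 0.151 FPKM in GsMTx4, 17.1 ± 0.708 FPKM in DSS and 23.1 ± 0.688 FPKM in Control (SD, n = 3 each). Its log2 fold change was 0.42 ± 0.10 for GsMTx4 against DSS (limma adjusted p = 0.0331) and -0.41 ± 0.10 for DSS against Control (limma adjusted p = 0.0278). Its GsMTx4 call was lost without GsMTx4 2 or any DSS or Control library, with limma adjusted p of 0.0585 to 0.0972. Its DSS call was lost without DSS 1, DSS 2 or any Control library, with limma adjusted p of 0.064 to 0.105.

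In DSS against Control Fbxw11 was the only one of the 12 to pass, as lower, with 10.7% of all tested genes called lower. After median-of-ratios scaling it did not pass (log2 fold change -0.23, limma adjusted p = 0.187), and Nfil3 (limma adjusted p = 0.0317) and Bhlhe40 (limma adjusted p = 0.0444) passed as higher instead. In GsMTx4 against Control 0 of 12 passed with limma, while 4 were higher and 0 lower at an unadjusted p under 0.05, as were 401 higher and 1055 lower of all 14360 genes. The 2 with the smallest p there were Ciart at 1.153 ± 0.20 (limma adjusted p = 0.0818) and Bhlhe40, a repressor at E-boxes, at 0.53 ± 0.15 (limma adjusted p = 0.294). Bhlhe40 stood at 35.5, 29.7 and 25.9 FPKM in GsMTx4, at 26.7, 25.8 and 26.7 FPKM in DSS and at 22.5, 17.6 and 21.8 FPKM in Control. GsMTx4 and DSS each lay above Control, and they overlapped each other.

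Further relatives of the members, Tef, Hlf and Cry2, were picked out after their values were seen. Tef and Hlf, the other PAR bZIP genes beside Dbp, and Cry2, the partner of Cry1, were each higher in all GsMTx4 libraries than in any other library. Tef stood at 12.0, 7.67 and 11.1 FPKM in GsMTx4, at 4.92, 3.63 and 2.30 FPKM in DSS and at 1.68, 3.21 and 7.45 FPKM in Control. Its log2 fold change against DSS was 1.30 ± 0.39 (limma adjusted p = 0.0592), and it passed without Control 1 (limma adjusted p = 0.04) or Control 3 (limma adjusted p = 0.0293). Hlf was low, at 0.614 to 1.08 FPKM in GsMTx4, 0.378 to 0.492 FPKM in DSS and 0.280 to 0.613 FPKM in Control, and was not tested. Cry2 averaged 3.94 ± 0.829 FPKM in GsMTx4, 2.14 ± 0.489 FPKM in DSS and 2.42 ± 0.602 FPKM in Control (SD, n = 3 each). Its log2 fold change against DSS was 0.65 ± 0.20 (limma adjusted p = 0.0612). Cry1 and Cry2 thus stood on opposite sides of the other groups in GsMTx4.

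Of 12 genes known as rhythmic in several mouse organs, 11 were tested. In GsMTx4 against DSS 2 of 11 passed as higher and 1 as lower, with 6.66% and 5.62% of all tested genes in those directions. Their median log2 fold change was -0.09, with 0.07 over all genes. The mitotic kinase gene Wee1, a direct target of the Arntl pair, stood at 3.39, 4.87 and 4.59 FPKM in GsMTx4, at 2.11, 1.55 and 1.72 FPKM in DSS and at 4.13, 4.76 and 4.73 FPKM in Control. DSS was the group apart, as for Clock. The log2 fold change of Wee1 was 0.91 ± 0.15 for GsMTx4 against DSS (limma adjusted p = 0.00794) and -0.99 ± 0.15 for DSS against Control (limma adjusted p = 0.00409), and both calls held with each library left out.

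Usp2, a ubiquitin protease gene of the clock's output, stood at 5.64, 5.68 and 4.61 FPKM in GsMTx4, at 3.87, 2.00 and 2.15 FPKM in DSS and at 2.82, 2.83 and 2.74 FPKM in Control. GsMTx4 was above both other groups, as for Dbp. The log2 fold change against DSS was 0.81 ± 0.19 (limma adjusted p = 0.0263). It was lost without GsMTx4 1, GsMTx4 2, DSS 2 or DSS 3, with limma adjusted p of 0.0544 to 0.0914. Fkbp5, a co-chaperone of the glucocorticoid receptor that glucocorticoids induce, stood at 9.22, 7.17 and 5.599 FPKM in GsMTx4, at 20.9, 28.0 and 14.96 FPKM in DSS and at 9.16, 16.4 and 14.7 FPKM in Control. GsMTx4 lay below every DSS library and reached into the Control range. Fkbp5 fell with GsMTx4, with a log2 fold change of -1.40 ± 0.28 against DSS (limma adjusted p = 0.0148, and limma adjusted p = 0.0531 without GsMTx4 2).

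In DSS against Control 3 of the 11 output genes rose and 2 fell, with 6.41% of all tested genes called higher and 10.7% lower, and Wee1 was one of those that fell. Tspan4, a tetraspanin gene, averaged 9.40 ± 5.06 FPKM in DSS and 2.73 ± 0.185 FPKM in Control, a log2 fold change of 1.36 ± 0.32 (limma adjusted p = 0.021). Coq10b, which binds coenzyme Q, averaged 8.89 ± 0.795 FPKM in DSS and 5.37 ± 0.641 FPKM in Control, 0.64 ± 0.12 (limma adjusted p = 0.0105). Por, the electron donor of cytochrome P450 enzymes, averaged 19.1 ± 1.10 FPKM in DSS and 14.2 ± 0.139 FPKM in Control, 0.40 ± 0.12 (limma adjusted p = 0.0428). Lonrf3, which reached 1 FPKM in 4 libraries, 3 of them Control, averaged 0.462 ± 0.119 FPKM in DSS and 1.43 ± 0.405 FPKM in Control, -0.72 ± 0.19 (limma adjusted p = 0.0342). The call of Coq10b was lost without Control 2 (limma adjusted p = 0.0568), and that of Tspan4 without DSS 2 or any Control library (limma adjusted p of 0.056 to 0.0727). Those of Por and Lonrf3 were lost without any 1 DSS or Control library, at limma adjusted p of 0.0549 to 0.134 and 0.0559 to 0.115. In GsMTx4 against Control 0 of 11 passed with limma, while 4 were higher and 4 lower at an unadjusted p under 0.05, against the 401 higher and 1055 lower of all 14360 genes. Coq10b at 0.56 ± 0.12 (limma adjusted p = 0.209) and Usp2 at 0.73 ± 0.19 (limma adjusted p = 0.255) had the smallest p.

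**Figure D5:**
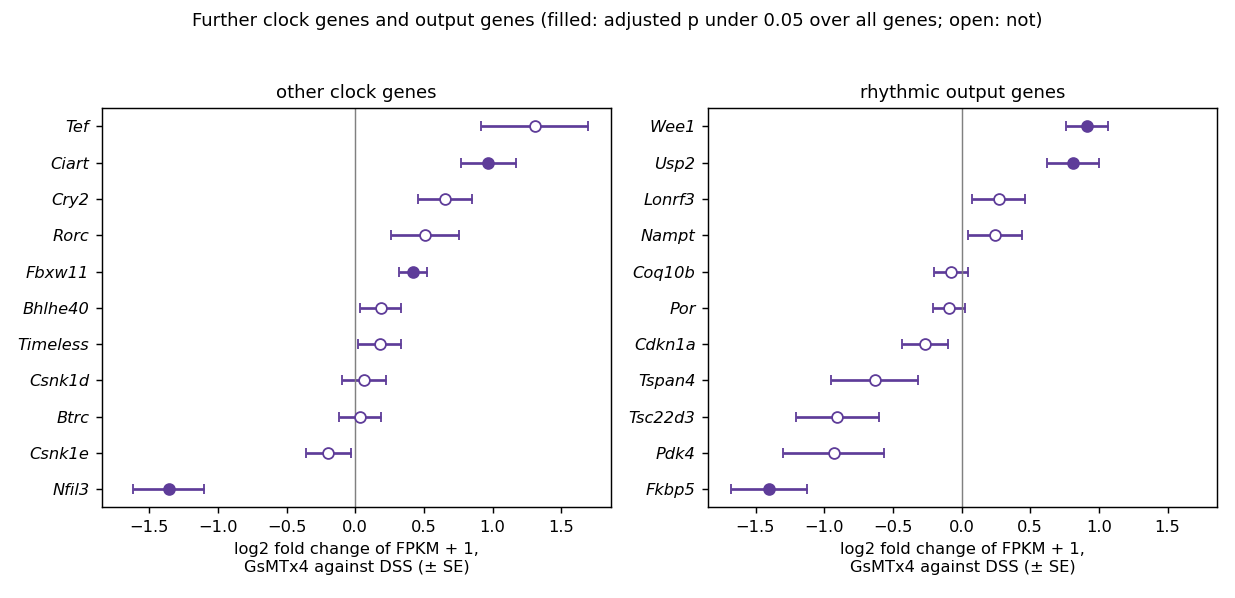
Log2 fold changes of FPKM + 1 with standard errors in GsMTx4 against DSS for 11 of the 12 further clock genes tested and 11 rhythmic output genes, filled where the limma adjusted p over all genes is under 0.05. Nfil3 at -1.36 and Fkbp5 at -1.40 stand lowest in their lists, and Tef at 1.30, which did not pass, stands highest.

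The genes whose levels over the 9 libraries were most like those of Dbp, by Pearson's r of log2(FPKM + 1), were Gc, Serpina3k, Ahsg, Fgb and Fgg, at r of 0.958 to 0.972. All 5 encode plasma proteins made by hepatocytes. They reached 1 FPKM in the GsMTx4 libraries only, so they entered the test through the group where Dbp is high. Their r therefore restates that difference between groups. Gc stood at 1.91, 2.24 and 2.23 FPKM in GsMTx4 and is listed at 0 in all DSS and Control libraries. Serpina3k stood at 3.94, 4.62 and 5.78 FPKM in GsMTx4 and at no more than 0.337 FPKM elsewhere. Alb, the serum albumin gene of hepatocytes, looked up after these were seen, averaged 14.1 ± 0.758 FPKM in GsMTx4, 0.221 ± 0.225 FPKM in DSS and 0.933 ± 0.252 FPKM in Control (SD, n = 3 each). Hepatocytes also express the clock genes, and the part of such transcripts in the members' levels was not tested. Among the members, Per3 ranked 76 and Nr1d2 ranked 93 of 14359 genes in likeness to Dbp, at r of 0.83 and 0.81. Npas2 ranked 19 and Arntl ranked 57 among the genes most opposite to it, at r of -0.91 and -0.87.

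The genes most like Arntl were Rex1bd, B2m, Mrpl54, H2-K1 and Ighv11-2, at r of 0.928 to 0.95. B2m and H2-K1 encode chains of the MHC class I molecule, and Mrpl54 a mitochondrial ribosomal protein. B2m stood at 1832, 1966 and 2574 FPKM in GsMTx4, at 2347, 3615 and 3384 FPKM in DSS and at 3354, 3035 and 3424 FPKM in Control. Cry1 ranked 83 in likeness to Arntl at r of 0.83, and Dbp ranked 25 among the genes most opposite to it. These correlations are over 9 libraries that share 3 group means.

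Markers of other cells moved between the same groups. The summed FPKM of 8 neutrophil markers was 5.12 to 44.4 in GsMTx4, 60.0 to 306 in DSS and 1.99 to 2.89 in Control, with Mpo under 0.1 FPKM in every library. S100a8 and S100a9 carried most of the DSS sums, and S100a9, Csf3r, Cxcr2 and Mpo overlapped between GsMTx4 and DSS. S100a9 stood at 25.3 FPKM in GsMTx4 1 and at 22.8 FPKM in DSS 1. DSS 3, the library lowest in Nr1d1, Nr1d2 and Dbp, held the highest neutrophil sum. It also held the highest smooth muscle, fibroblast, endothelial and enteric neuron and glia sums. The 4 adipocyte markers summed to 3.33 to 5.03 FPKM in GsMTx4, 13.7 to 15.2 FPKM in DSS and 2.90 to 5.94 FPKM in Control. Fabp4 and Cidec carried that sum, and Adipoq and Plin1 were under 1 FPKM in every library with groups that overlapped. The 7 macrophage markers summed to 487 to 621 FPKM in GsMTx4, 801 to 1036 FPKM in DSS and 438 to 524 FPKM in Control. Lyz2 was the largest part of that sum, and Adgre1, C1qb and Mrc1 overlapped between GsMTx4 and DSS. The 6 fibroblast markers summed to 105 to 131 FPKM in GsMTx4, 123 to 266 FPKM in DSS and 122 to 140 FPKM in Control. The 8 epithelial markers, which define the labelled tissue, summed to 4605 to 5684 FPKM in GsMTx4, 4606 to 6320 FPKM in DSS and 4600.5 to 5950 FPKM in Control. Krt8 and Krt19 carried most of that sum. Krt20 separated all groups, with means of 442 FPKM in GsMTx4, 796 FPKM in DSS and 555 FPKM in Control. Cdx2 averaged 14.6, 21.0 and 34.9 FPKM in those groups, with DSS wholly below Control. Its GsMTx4 libraries stood far apart, at 5.21, 32.7 and 5.89 FPKM, and overlapped both other groups. The other epithelial markers overlapped between all groups. The sums of 7 smooth muscle markers overlapped between all groups, at 540 to 707 FPKM in GsMTx4, 208 to 827 FPKM in DSS and 426 to 694 FPKM in Control. The 8 lymphocyte markers summed to 35.7 to 55.1 FPKM in GsMTx4, 53.4 to 158 FPKM in DSS and 40.0 to 55.9 FPKM in Control. The 5 endothelial markers summed to 8.90 to 15.6 FPKM in GsMTx4, 13.6 to 27.3 FPKM in DSS and 8.65 to 13 FPKM in Control, and the 6 enteric neuron and glia markers to 2.80 to 4.09, 2.07 to 17.9 and 1.85 to 4.82 FPKM in those groups. The part of these cells in the members' levels was not tested, and in whole tissue fewer cells of a type and less RNA per cell cannot be told apart.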

How the data were processed

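RNA of mouse colon, extracted with Trizol per the labels' protocols, was sequenced. The authors deposited 1 table of FPKM values for 35315 genes in 9 libraries. The submitters' processing notes name cutadapt, FastQC and the build GRCm38. Not given in the sources used here are the aligner, the program that made the FPKM values and the use of strand. Groups and replicate numbers came from the sample titles. Identifiers were matched to GENCODE M21 of GRCm38 (35196 had a symbol, 119 had none). Values were transformed to log2(FPKM + 1), which understates changes of low genes. Genes with at least 1 FPKM in at least 3 libraries, 14360 in all, were fitted with limma 3.58.1 in R 4.3.3 with 1 mean per group, a spread that follows expression and 6 residual degrees of freedom. Tests were two-sided, with Benjamini-Hochberg adjustment over all genes and a threshold of 0.05. P-values set a difference between groups against the spread between these libraries, and whether that is a spread between mice is not known. The fit was also run on simulated data with independent normal noise, a simpler setting than these libraries, and nothing is read from it.

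The members and lists were chosen with earlier results of these data known. Named genes are all 10 members, each further clock or output gene called in a comparison, the 2 with the smallest p per comparison, and the 5 genes most like Dbp and most like Arntl, predicted genes left out. A further clock gene that these rules name is counted with its list and not reported here by name. Alternatives were other pseudocounts, filters and scalings, the compared groups only, the replicate number as a block and each library left out. Promoter sequences are from RefSeq. Figures were drawn with matplotlib 3.10.9.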

Additional observations from a re-analysis of the deposited data

How the results depend on the processing

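Of 534 member log2 fold changes recomputed under the alternatives, 523 moved by less than 1 SD between replicates, 11 moved further and no called value changed sign. Filters, the compared groups only, the replicate block and a library left out of the group not compared cannot move a log2 fold change. Values under those settings are counted among the 523, so that number overstates how well the values hold. Arntl and Per3 averaged under 5 FPKM and had no value with that filter. The members called for GsMTx4 against Control numbered 2 after TPM rescaling. The 12 further clock genes called for DSS against Control, 1 lower as deposited, numbered 2 lower after TPM rescaling or with the compared groups only, 2 higher after median-of-ratios scaling and 1 each way after quantile normalization, and for GsMTx4 against DSS they numbered 2 with no filter, after median-of-ratios scaling or with the compared groups only. The output genes called for DSS against Control numbered 3 with no filter or with a mean FPKM of at least 5, and for GsMTx4 against DSS 1 with a mean of at least 5. Wee1, Usp2 and Lonrf3 averaged under 5 FPKM, so they were not tested with that filter and are missing from its counts for that reason. Over all genes, calls for DSS against Control were 2462 of 14360 genes tested, and 1571 of 7631 genes tested with a mean of at least 5. Calls for GsMTx4 against DSS were 1763, with 1073 under no filter, where 33133 genes were tested, and 587 with the compared groups only. Calls for GsMTx4 against Control were 34, with 21 and 4 at pseudocounts of 0.1 and 0.01 and 5 of 7631 genes tested with a mean of at least 5. The cause of these moves was not tested.

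Same-numbered libraries of different groups had correlated deviations of -0.234 to 0.0998, and 1 of 9 libraries correlated best with its own number, so the numbers were not taken as pairs. With the replicate number as a block, calls over all genes were 1078 for GsMTx4 against DSS, 26 for GsMTx4 against Control and 1708 for DSS against Control. With that block 0 further clock genes were called for DSS against Control and 2 for GsMTx4 against DSS, and 3 output genes for DSS against Control. Of the members, Arntl and Npas2 were no longer called for GsMTx4 against DSS with the block, leaving 4, nor Per3 for DSS against Control, leaving 2.

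With 1 library left out, calls over all genes ran from 963 to 3101 for DSS against Control, from 716 to 1977 for GsMTx4 against DSS and from 13 to 83 for GsMTx4 against Control. Further clock genes called ran from 0 to 2 for DSS against Control and from 1 to 4 for GsMTx4 against DSS. Output genes called ran from 1 to 5 and from 1 to 4 in those comparisons, and members from 1 to 3 for DSS against Control, from 4 to 8 for GsMTx4 against DSS and from 1 to 2 for GsMTx4 against Control. Median-of-ratios scaling shifted the all-gene median (log2) by 0.16 for DSS against Control, where 60.0% of calls were then higher, against 37.4% as deposited. TPM rescaling shifted it by -0.11, with 27.5% higher, and quantile normalization gave 48.4% higher. For GsMTx4 against DSS 43.3% of calls were higher after median-of-ratios scaling, against 54.2% as deposited. For GsMTx4 against Control the share was 79.4% as deposited, 90.5% at a pseudocount of 0.1, 60.0% with a mean FPKM of at least 5, and 73.7% after TPM rescaling.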
